A study of Mus musculus with 12 samples.

Results

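The genes described here are the collagen chains, the genes whose symbol is Col, a type number, a and a chain number, of which 44 were found among the 24692 entries of the expression table. The study isolated 4 populations of mesenchymal cells from mouse back skin as hair follicles entered early anagen, the growth phase, and asked how the stem cells of the follicle dermis compare with the populations around them. Every population came from male mice of postnatal day 26 to 27 that carried a Sox2:GFP and an aSMA:dsRed reporter, and the labels give no treatment or genotype difference between groups. Back skin was digested with dispase and collagenase, the enzyme that cuts collagen, stained with antibodies and sorted by fluorescence, and RNA was taken directly after the sort. Each population is represented by 3 libraries, 12 in all: hair follicle dermal stem cells (replicates 1, 2 and 4), dermal papilla (1, 2 and 4), dermal sheath (1, 4 and 5, where replicate 1 carries the title DSL1 in place of DS) and interfollicular dermis (1, 2 and 6). The labels do not say whether libraries of a population came from separate mice, so the spread behind each p-value, that among these libraries, may be technical.

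Collagens are trimers in which the chains wind around each other as a triple helix. Fibrillar collagens form the load-bearing fibres of the dermis, and fibril-associated collagens sit on those fibres. Network collagens build basement membranes and short-chain lattices, type VI collagen forms beaded microfilaments, and transmembrane collagens are anchored in the cell surface. In the hair follicle the dermal sheath is wrapped around the epithelium outside a shared basement membrane, and the papilla is a small cluster of specialised fibroblasts enclosed by the hair bulb. By class, the 44 chains were 11 fibrillar, 9 fibril-associated, 9 basement membrane, 3 short-chain network, 6 beaded, 4 transmembrane and 2 other chains.

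Levels are given in FPKM, a fragment level adjusted for library size and transcript length and so allowing levels of different chains to be compared within a library. Values for the single libraries follow the order of the replicate numbers above. Differences between populations are log2 differences of FPKM + 1 from limma, a linear model fitted across all genes, with Benjamini-Hochberg adjusted p-values and a threshold of 0.05; on this scale the change of a low gene is understated. A gene was tested if at least 3 libraries reached 1 FPKM. Of the 44 chains 29 passed this filter and 15 did not. No tested chain passed through the libraries of 1 population only, and 17 chains reached 1 FPKM in all 12 libraries. The 6 comparisons between populations share libraries with each other, so their counts are set side by side and are not independent.

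The FPKM of a library summed to between 181683 and 262695, with 10711 to 11810 entries at 1 FPKM or more, and the number of reads behind these values is not known. Of 10 dermal papilla markers, 8, among them Sox2, Corin and Alpl, were higher in the papilla than in the sheath (16.4% of all tested entries were) and 8 were higher than in interfollicular dermis (13.7% of entries), where Lef1 was lower. Against stem cells 2 of the 10, Crabp1 and Rspo3, were higher in the papilla and 0 lower, beside 2.31% and 6.38% of entries. The sum of the 10 was 250 to 1560 FPKM in the papilla, 152 to 295 in stem cells, 35.6 to 112 in the sheath and 123 to 225 in interfollicular dermis. The papilla list thus went with its label against the sheath and interfollicular libraries, while the papilla and stem cell sums overlapped. Of 7 dermal sheath or smooth muscle markers all 7, and of 8 fibroblast markers 7, were lower in the libraries labelled dermal sheath than in stem cells (19.6% of entries were). The summed level of 8 fibroblast markers was 3390 to 4210 FPKM in the stem cell libraries and 2940 to 4610 in the papilla, but 639 to 1050 in the libraries labelled dermal sheath and 560 to 870 in those labelled interfollicular dermis. Trp63, a transcription factor of basal epidermal cells, stood at 98.7, 116 and 146 FPKM in the sheath libraries and 98.1, 75.8 and 93.2 in the interfollicular ones, against 8.86 to 24.8 in the other 6. It is 1 of 12 keratinocyte markers. Of these, 7 were higher and 2, Krt1 and Krt10, lower in the sheath than in stem cells, beside 24.3% and 19.6% of entries. The sum of the 12 was 1240 to 1520 FPKM in the sheath and 1430 to 1930 in interfollicular dermis. It was 1220 to 3490 in the papilla and 712 to 1360 in stem cells. Acta2, the smooth muscle actin whose promoter names the dsRed reporter, was at 866, 901 and 850 FPKM in the stem cell libraries and at 35.8, 36.2 and 76.0 in the sheath libraries. The sum of 4 proliferation markers was 213 to 257 FPKM in the sheath and 143 to 168 in the interfollicular libraries, and 7.88 to 33.2 in the stem cell and papilla libraries. The fibroblast sum was higher, and Trp63 and the proliferation sum lower, in stem cells and papilla than in the sheath and interfollicular libraries. Summed collagen levels, reported below, were higher in stem cells and papilla too. The papilla, smooth muscle and keratinocyte lists did not follow this in every comparison. Of the 7 smooth muscle markers 0 were higher and 2 lower in the papilla than in the sheath, beside 16.4% and 33.4% of entries. The part of any of these markers in the collagen results was not tested. In such bulk libraries fewer cells of a type and less RNA per cell cannot be told apart.

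The sequence just before the start of 3 fibrillar genes is shown because of the contrast reported below: Col11a1 was far higher in stem cells than in the papilla, while Col5a1, whose product is a close relative, and Col3a1 were not. RefSeq positions on GRCm38.p6 were found for all 44 chains, and 35 chains had 38 start windows in the RefSeq table. Each sequence below lies within the 200 bases before the tabulated start, on the plus strand, and stops before the RefSeq gene begins. Capitals mark, on either strand, the TATA box (spelled TATAAA), the CCAAT box (spelled CCAAT), the GC box (spelled GGGCGG) or a motif of TEAD factors (spelled GGAATG); none of these words overlaps another in the printed windows. The windows are chr1:45311338-45311537 for Col3a1, chr2:27886225-27886380 for Col5a1 and chr3:114030340-114030478 for Col11a1.
Col3a1: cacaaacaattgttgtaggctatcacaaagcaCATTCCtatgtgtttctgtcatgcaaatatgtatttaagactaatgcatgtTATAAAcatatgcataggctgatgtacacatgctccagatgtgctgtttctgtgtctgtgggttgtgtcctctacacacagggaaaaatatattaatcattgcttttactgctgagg
Col5a1: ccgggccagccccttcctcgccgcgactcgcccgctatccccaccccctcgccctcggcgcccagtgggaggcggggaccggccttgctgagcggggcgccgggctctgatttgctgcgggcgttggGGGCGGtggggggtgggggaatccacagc
Col11a1: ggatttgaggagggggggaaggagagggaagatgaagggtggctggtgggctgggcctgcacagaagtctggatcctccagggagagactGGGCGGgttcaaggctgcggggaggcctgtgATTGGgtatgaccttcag
The Col3a1 window held a TATA box and, on the minus strand, a TEAD motif. The printed part of the Col5a1 window held 1 GC box, and that of Col11a1 held 1 GC box and, on the minus strand, a CCAAT box. Over the full 200 bases, 22 of the 38 collagen windows held a GC box, against 31% of 32851 mouse windows of that length. The TATA box was in 4 of the 38, against 9.96% of all windows, the CCAAT box in 10, against 29.3%, and the TEAD motif in 4, against 10.1%. A match is a description of letters only.

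Collagen transcripts made up a much larger part of the total in the stem cells and papilla than in the other 2 populations. The 44 chains together took 2.89%, 3.12% and 4.39% of the summed FPKM in the stem cell libraries and 8.60%, 4.93% and 8.54% in the papilla. In the sheath libraries their share was 0.276%, 0.540% and 0.293%, and in the interfollicular libraries it was 0.0907%, 0.260% and 0.706%. All 3 papilla libraries were above all 3 stem cell libraries, while the sheath and interfollicular libraries overlapped and were below both. The makeup of this collagen also differed. Fibrillar chains were 79.8% to 83.2% of collagen FPKM in stem cells and 92.0% to 95.1% in the papilla, whereas basement membrane chains were 4.97% to 5.5% and 0.998% to 2.39%, and beaded chains 9.32% to 12.9% and 3.15% to 4.16%. In the sheath the fibrillar share ranged from 52.2% to 83.6% and the basement membrane share from 8.68% to 24.7%. Interfollicular libraries ranged from 52.7% to 81.1% for fibrillar chains and had the largest transmembrane share, 5.27% to 13.5%. These shares were not tested.

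**Figure D1:**
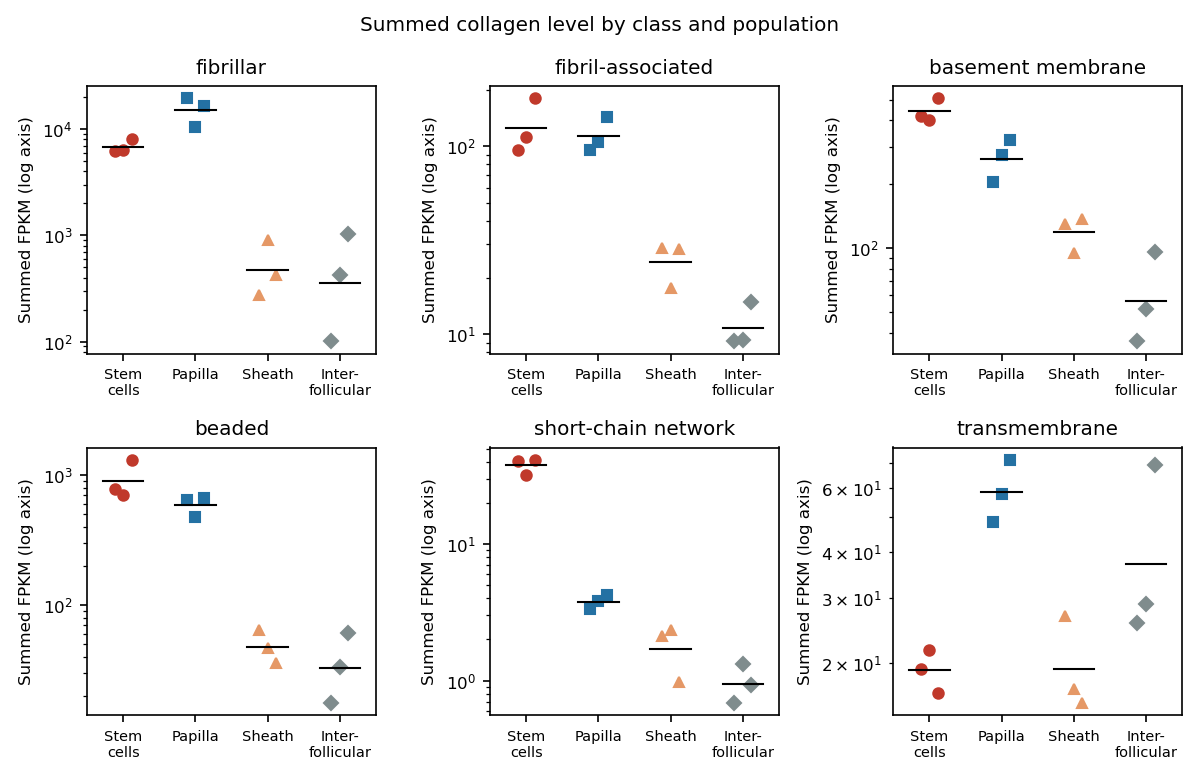
Summed FPKM of the chains of each collagen class in each of the 12 libraries, by population, on a log axis; each point is 1 library and the black line is the geometric mean of the 3 libraries of a population. Fibrillar chains led in every library, and the stem cell and papilla libraries were above the sheath and interfollicular libraries for fibrillar, fibril-associated, basement membrane, short-chain and beaded chains.

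Over the 4 populations, 23 of the 29 tested chains passed the F test of limma, beside 56.8% of all 12774 tested entries. The 6 that did not were Col20a1, Col4a5, Col4a6, Col7a1, Col18a1 and Col26a1. Between papilla and stem cells 6 chains passed, beside 8.69% of entries, with 2 higher in the papilla (2.31% of entries) and 4 lower (6.38%). Sheath against stem cells gave 20 chains, all lower in the sheath, beside 43.9% of entries in either direction and 19.6% lower. Papilla against sheath gave 21, of which 19 were higher in the papilla and 2 lower, beside 49.8% in either direction, 16.4% higher and 33.4% lower. Stem cells against interfollicular dermis gave 21, of which 20 were higher in stem cells and 1 lower, beside 37.6% in either direction, 17.9% higher and 19.7% lower. Papilla against interfollicular dermis gave 24, all higher in the papilla, beside 42.3% and 13.7%. Sheath against interfollicular dermis gave 0 of 29, beside 2.26% of entries in either direction, 0.939% higher and 1.32% lower. In that limma comparison 10 chains had an unadjusted p under 0.05. The share of all entries at this looser threshold was not taken, so the 10 are not read as a result about the chains.

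The median log2 difference of the 29 chains was 3.11 for stem cells minus interfollicular dermis, where the median of all tested entries was -0.14. It was 1.97 for papilla minus interfollicular dermis, with -0.32 over all entries, and 1.47 for papilla minus sheath, with -0.36. For sheath minus stem cells it was -2.35, with 0.13 over all entries. For papilla minus stem cells the chains' median was -0.16 and that of all entries -0.25, and for sheath minus interfollicular dermis the values were 0.38 and 0.05. The chains' median was thus further from that of all entries in the 4 comparisons of stem cells or papilla with the other 2 populations than in the remaining comparisons.

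**Figure D2:**
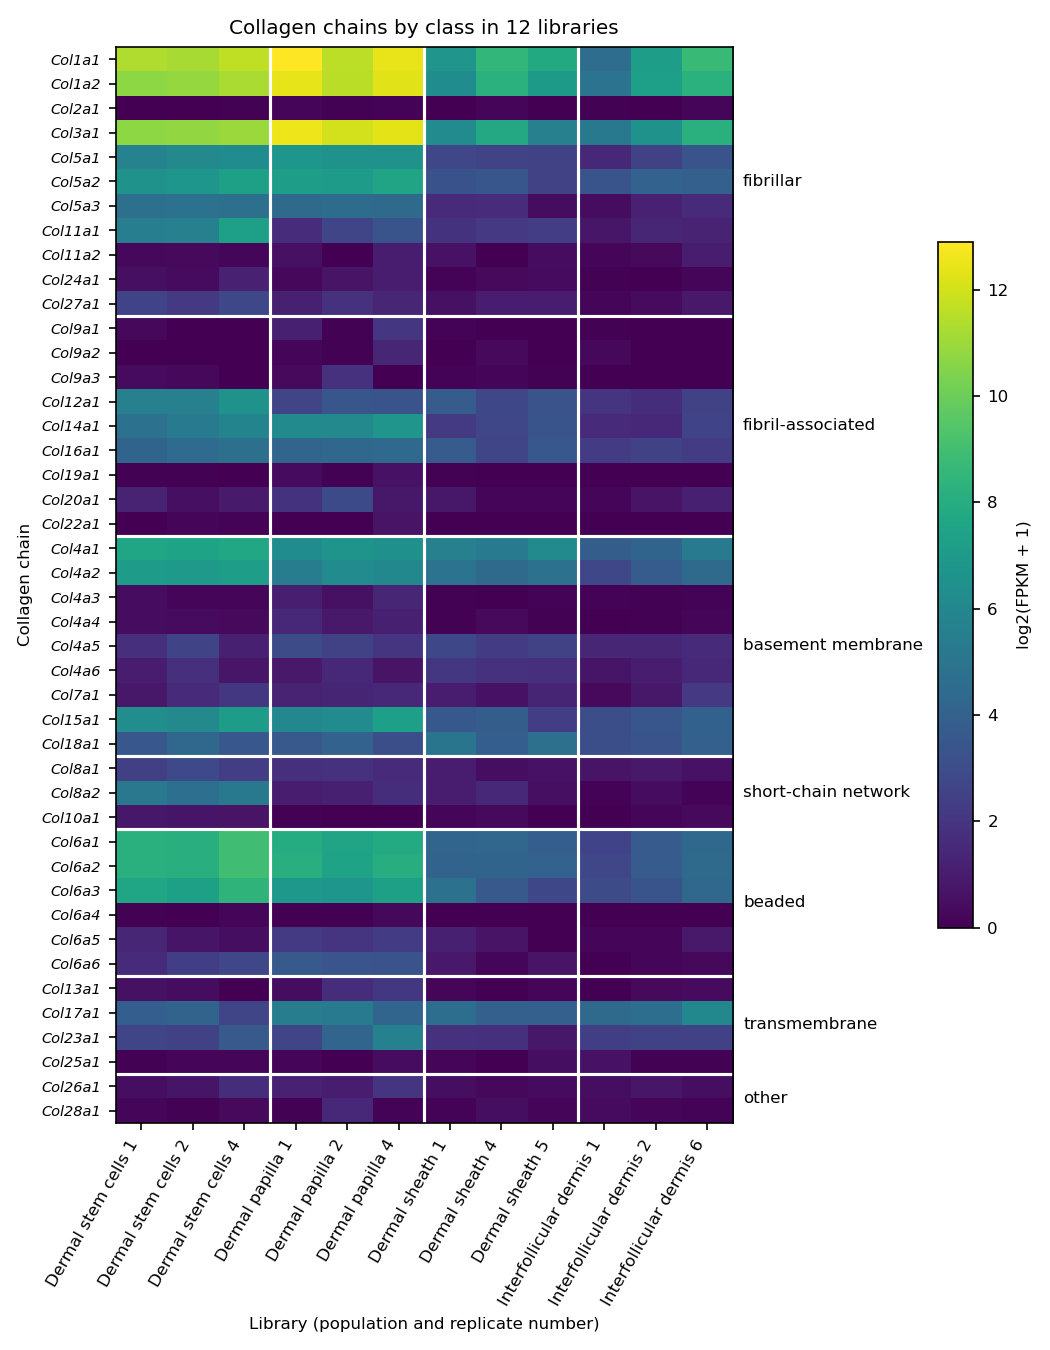
Heat map of log2(FPKM + 1) of all 44 chains (rows, by class) in the 12 libraries (columns, by population). Col1a1, Col1a2 and Col3a1 are the brightest rows (highest level) in the stem cell and papilla columns, and the sheath and interfollicular columns are darker (lower level) for most fibrillar and beaded chains.

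Type I and type III collagen, the bulk of dermal fibres, dominated. Col1a1 encodes the alpha 1 chain of type I collagen and stood at 2639, 2405 and 3230 FPKM in stem cells, 7642, 3167 and 5729 in the papilla, 104, 373 and 229 in the sheath and 23.2, 152 and 415 in interfollicular dermis. Col1a2, its partner chain, was at 1687, 1855 and 2480 FPKM in stem cells, 5539, 3019 and 5052 in the papilla, 75.8, 297 and 131 in the sheath and 28.9, 152 and 304 in interfollicular dermis. Col3a1, whose product forms homotrimers that mix into type I fibrils, was at 1677, 1813 and 2020, then 6107, 4125 and 5287, then 74.4, 219 and 47.4, and last 36.0, 95.01 and 292 FPKM in the same order of populations. For Col1a2 and Col3a1 every papilla library was above every stem cell library; for Col1a1 papilla replicate 2 was below stem cell replicate 4. The sheath and interfollicular ranges overlapped for all 3 genes.

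None of the 3 passed the test between papilla and stem cells. Col3a1 differed by 1.48 ± 0.65 (log2, SE; adjusted p = 0.18), Col1a2 by 1.15 ± 0.71 (adjusted p = 0.333) and Col1a1 by 0.92 ± 0.81 (adjusted p = 0.512). The 95% interval of the Col1a1 difference ran from -0.83 to 2.67, which does not show that the populations were alike. The spread in this fit is shared by all 4 populations. Col1a1 was at 2758 ± 425 FPKM in stem cells and 5513 ± 2245 in the papilla (SD, n = 3 each). It was at 235.3 ± 134.4 FPKM in the sheath and 196.6 ± 199.6 in interfollicular dermis (SD, n = 3 each). Against interfollicular dermis the papilla was higher by 5.65 for Col3a1 (adjusted p = 4.92e-05), 5.49 for Col1a1 (adjusted p = 0.000257) and 5.29 for Col1a2 (adjusted p = 0.000131). Against the sheath the papilla was higher by 5.78, 4.63 and 4.92 for Col3a1, Col1a1 and Col1a2.

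The stem cells and papilla share replicate numbers, and same-numbered libraries of these populations deviated together from their population means, so the replicate number was also fitted as a block. Libraries of different numbers were not compared in this way, so the pairing is an assumption. With this block Col3a1 passed as higher in the papilla (adjusted p = 0.0421) and the count for papilla against stem cells was 9 in place of 6. The other chains gained were Col14a1 (adjusted p = 0.0174) and Col17a1 (adjusted p = 0.00416), higher, and Col4a1 (adjusted p = 0.00956) and Col4a2 (adjusted p = 0.0256), lower. Col27a1 (adjusted p = 0.0568) and Col6a6 (adjusted p = 0.0674) did not pass with the block. Fitted on the stem cell and papilla libraries alone, so without the sheath and interfollicular libraries, 5 chains passed, all lower in the papilla; with the block added there, 9 passed, 3 higher and 6 lower. Under median-of-ratios scaling the 6 calls were 3 higher and 3 lower. Shares of all entries called were not taken for these other fits, so a change in their counts is not read as a result about the chains.

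Type V and XI chains, which are built into type I fibrils and set their diameter, were distributed differently. Col5a1 was at 52.6, 65.1 and 75.2 FPKM in stem cells, 107, 97.8 and 98.5 in the papilla, 5.61, 5.25 and 4.67 in the sheath and 1.81, 4.94 and 9.31 in interfollicular dermis. Its partner Col5a2 was at 93.2, 110 and 159, 142, 132 and 181, 8.55, 9.92 and 4.89, and 9.17, 15.8 and 14.3 FPKM. Every stem cell and papilla library exceeded every sheath and interfollicular library for both. Neither chain passed between papilla and stem cells (Col5a1 0.66, adjusted p = 0.272; Col5a2 0.35, adjusted p = 0.486), and both were lower in the sheath than in stem cells, by -3.39 (adjusted p = 1.78e-05) and -3.80 (adjusted p = 1.95e-06). Col5a3 averaged 27.0 FPKM in stem cells, 21.2 in the papilla, 1.47 in the sheath and 1.15 in interfollicular dermis.

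Col11a1, the alpha 1 chain of type XI collagen and best known from cartilage, was at 44.5, 47.8 and 152 FPKM in stem cells. It was at 2.10, 5.54 and 9.24 in the papilla, 2.74, 3.39 and 4.03 in the sheath and 0.712, 1.58 and 1.31 in interfollicular dermis. Stem cells stood above all other libraries with no overlap, and the papilla and sheath overlapped. The papilla was lower than stem cells by -3.56 ± 0.48 (log2, SE; adjusted p = 0.000899), the sheath by -4.003 (adjusted p = 4.47e-05), and stem cells were above interfollicular dermis by 5.01 (adjusted p = 9.45e-06). Papilla against sheath gave 0.44 (adjusted p = 0.461). The ratio of Col11a1 to Col5a1, 1 of 4 pairs chosen after their values were seen, was 0.734 to 2.02 in stem cells and 0.0196 to 0.0938 in the papilla. In the sheath it was 0.489 to 0.863, overlapping stem cells, and in interfollicular dermis 0.141 to 0.393. Col27a1, a fibrillar chain of growing cartilage, averaged 4.89 ± 1.28 FPKM in stem cells and 1.78 ± 0.71 in the papilla (SD, n = 3 each) and was lower in the papilla by -1.09 (adjusted p = 0.0415); this call held under 3 of 21 alternative settings, with adjusted p-values up to 0.208.

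**Figure D3:**
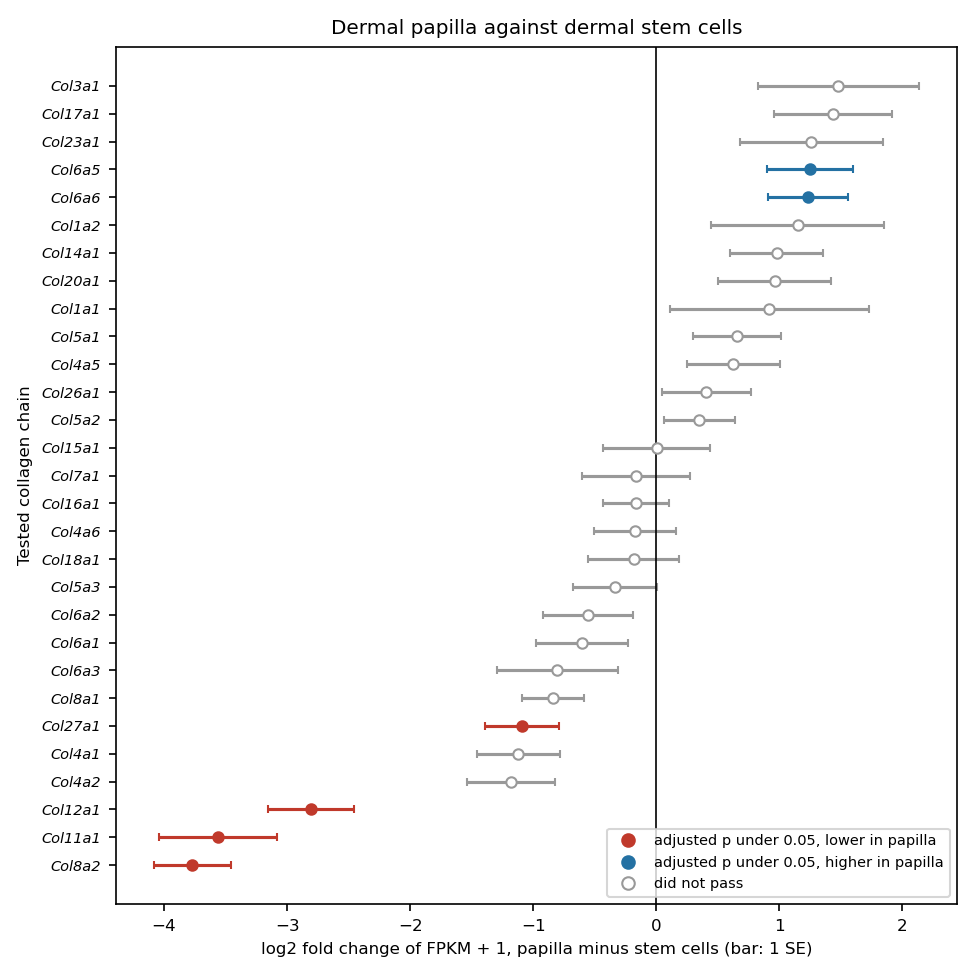
Log2 difference of FPKM + 1, papilla minus dermal stem cells, for the 29 tested chains; bars are 1 SE from limma on each side, filled points passed the adjusted p threshold of 0.05 and open grey points did not. Col8a2, Col11a1 and Col12a1 lie furthest below 0, and Col6a5 and Col6a6 are the only filled points above it.

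Of the fibril-associated chains, 4 of 9 were tested. Col12a1 and Col14a1 encode related chains that coat type I fibrils and link them to their surroundings. Col12a1 was at 48.7, 48.9 and 98.0 FPKM in stem cells, 5.57, 9.77 and 9.16 in the papilla, 12.3, 6.02 and 8.76 in the sheath and 2.96, 2.23 and 4.68 in interfollicular dermis. Col14a1 was at 27.9, 39.8 and 54.5 in stem cells, 67.5, 67.0 and 106 in the papilla, 3.59, 5.63 and 9.32 in the sheath and 1.92, 1.75 and 5.07 in interfollicular dermis. The papilla therefore had the highest Col14a1 and a Col12a1 level that overlapped the sheath, while stem cells had the highest Col12a1. Col12a1 was lower in the papilla than in stem cells by -2.81 ± 0.35 (log2, SE; adjusted p = 0.000528); Col14a1 differed by 0.98 ± 0.38 (adjusted p = 0.132, and 0.0174 with the replicate block). The ratio of Col12a1 to Col14a1, a pair also chosen after its values were seen, was 1.23 to 1.80 in stem cells, 0.0825 to 0.146 in the papilla, 0.940 to 3.43 in the sheath and 0.922 to 1.54 in interfollicular dermis. Against interfollicular dermis the papilla was higher in Col14a1 by 4.44 (adjusted p = 6.76e-06). Col12a1 was higher there by 1.10 (adjusted p = 0.022), a call lost under 5 of 21 alternatives, with adjusted p-values up to 0.0863.

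Col16a1, a minor fibril-associated chain, averaged 21.8 FPKM in stem cells, 19.1 in the papilla, 9.15 in the sheath and 4.13 in interfollicular dermis. The sheath was below stem cells by -1.21 (adjusted p = 0.00313). Col20a1 averaged 3.37 ± 2.93 FPKM (SD, n = 3) in the papilla, with 2.73, 6.57 and 0.802 in its libraries, and under 1 FPKM on average in the other populations. Its call against the sheath (1.47, adjusted p = 0.0183) ended when papilla replicate 2 (adjusted p = 0.0769), sheath replicate 4 (0.0568) or sheath replicate 5 (0.0569) was left out, and with the replicate block (0.0812). It passed against interfollicular dermis at an adjusted p of 0.0496, a call that held under 5 of 19 alternatives.

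**Figure D4:**
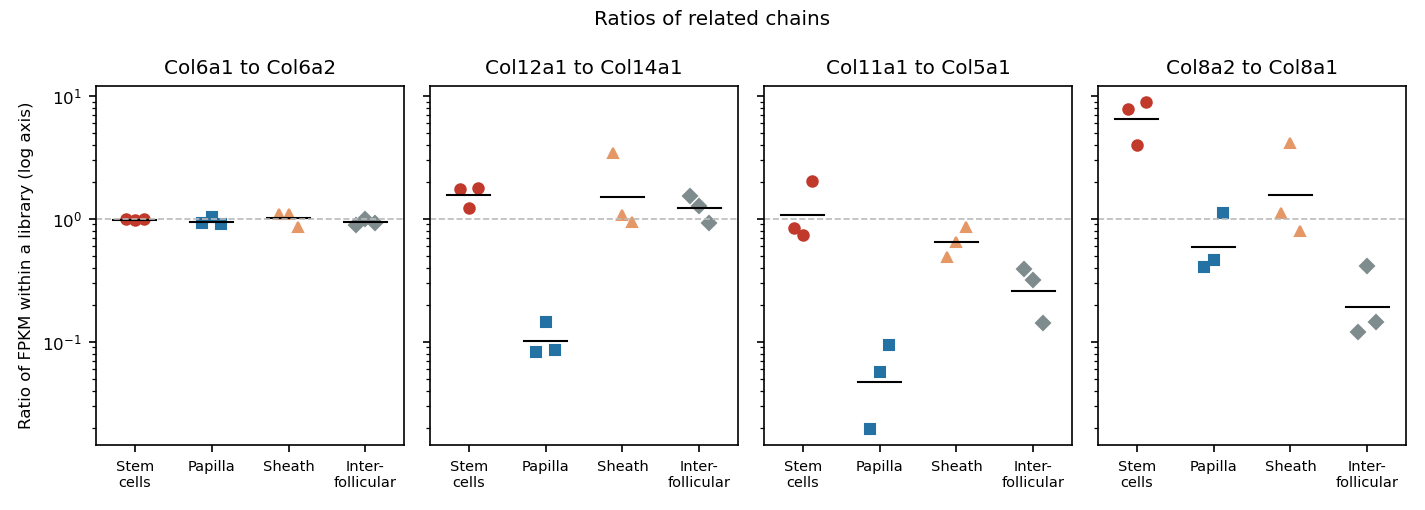
Ratios of FPKM for 4 pairs of chains in each of the 12 libraries, by population, on a log axis; each point is 1 library and the black line is the geometric mean. Col6a1 to Col6a2 stays between 0.851 and 1.10 in every library, while Col12a1 to Col14a1 and Col11a1 to Col5a1 are lowest in the papilla.

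Ratios between chains of 1 collagen type ranged from narrow to wide. Col6a1 to Col6a2 was 0.851 to 1.10 over the 12 libraries, although the Col6a1 level itself ranged from 5.10 to 487 FPKM. Col1a1 to Col1a2 was 0.801 to 1.75, and Col4a1 to Col4a2 1.36 to 2.49. Col6a3 to Col6a1 varied more, 0.435 to 1.60, and Col5a1 to Col5a2 was 0.198 to 0.953. Col8a2 to Col8a1, described below, had the widest range of these pairs of 1 type, 0.120 to 8.87. Col12a1 to Col14a1 and Col11a1 to Col5a1, pairs of different types, ran from 0.0825 to 3.43 and from 0.0196 to 2.02. These ratios are a description of FPKM, with no test.

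Basement membrane chains were 9, of which 7 were tested. Col4a1 and Col4a2 form the common type IV network; their genes lie head to head on chromosome 8 and overlap by 85 bases, so reads from there cannot be told apart where strand is not recorded. Col4a1 was at 188, 180 and 210 FPKM in stem cells, 76.3, 101 and 87.4 in the papilla, 48.6, 40.4 and 70.1 in the sheath and 12.9, 17.1 and 38.8 in interfollicular dermis. Col4a2 was at 135, 126 and 144, then 42.9, 74.5 and 64.2, then 28.8, 20.7 and 28.2, and last 5.72, 12.5 and 20.9 FPKM. In both genes the libraries ordered without overlap as stem cells, papilla and then sheath. Col4a1 was -1.12 ± 0.34 in papilla against stem cells (adjusted p = 0.0587) and Col4a2 -1.18 ± 0.36 (adjusted p = 0.0593); with the replicate block both passed, as given above. Stem cells were higher than interfollicular dermis by 3.17 for Col4a1 (adjusted p = 2.18e-05) and 3.44 for Col4a2 (adjusted p = 1.71e-05). Sheath against interfollicular dermis was 1.29 for Col4a1 (95% interval 0.56 to 2.02, adjusted p = 0.0739) and 1.08 for Col4a2 (0.31 to 1.85, adjusted p = 0.153).

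The remaining type IV chains were lower. Col4a5 averaged 2.93 FPKM in stem cells, 4.74 in the papilla, 4.79 in the sheath and 1.72 in interfollicular dermis, and Col4a6 averaged 1.38, 1.08, 2.78 and 1.10. Their genes are neighbours on the X chromosome, 1.27 kb apart. Col4a6 was lower in the papilla than in the sheath by -0.90 (adjusted p = 0.0397), a call that held under 9 of 20 alternatives, and the Col4a5 difference between papilla and interfollicular dermis (1.02, adjusted p = 0.0442) held under 11 of 21. Col4a3 and Col4a4 reached at most 1.64 and 1.66 FPKM, both in papilla libraries, and were not tested.

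Col15a1 and Col18a1 encode multiplexin chains, which carry heparan or chondroitin sulfate at basement membranes, and they were distributed differently. Col15a1 was at 79.3, 66.4 and 137 FPKM in stem cells, 63.2, 73.6 and 157 in the papilla, 10.6, 12.8 and 4.05 in the sheath and 7.70, 9.87 and 14.8 in interfollicular dermis. Col18a1 was at 10.2, 19.2 and 10.3, then 11.3, 15.7 and 7.51, then 31.6, 13.6 and 26.0, and last 7.50, 8.96 and 14.3 FPKM. Stem cells and papilla overlapped for both chains, and the sheath had the highest mean for Col18a1, 23.7 FPKM, with its replicate 4 inside the range of the stem cells. Col15a1 was lower in the sheath than in stem cells by -3.28 (adjusted p = 9.32e-05) and the papilla difference from stem cells was 0.01 (95% interval -0.94 to 0.95). Col18a1 was lower in the papilla than in the sheath by -0.96 (adjusted p = 0.0457), a call that held under 9 of 21 alternatives.

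Col7a1, the anchoring fibril chain that fastens epidermis to dermis, was low in all populations. It was at 0.810, 1.97 and 3.26 FPKM in stem cells, 1.39, 1.54 and 1.70 in the papilla, 0.942, 0.567 and 1.56 in the sheath and 0.257, 0.751 and 3.36 in interfollicular dermis. All 4 ranges overlapped, and its log2 differences between populations ran from -0.52 (sheath minus stem cells, adjusted p = 0.362) to 0.42 (stem cells minus interfollicular dermis, adjusted p = 0.482).

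Type VIII chains form hexagonal lattices beneath endothelia and in the eye. Col8a2 was at 35.1, 24.9 and 36.8 FPKM in stem cells, 0.949, 1.20 and 2.24 in the papilla, 1.06, 1.70 and 0.418 in the sheath and 0.0738, 0.337 and 0.0832 in interfollicular dermis. The stem cell libraries stood apart from all others by more than the range within any population. Of the 29 tested chains Col8a2 had the largest difference between papilla and stem cells, -3.77 ± 0.31 (log2, SE; adjusted p = 4.57e-05), and stem cells were 4.83 above interfollicular dermis (adjusted p = 4.39e-07). Col8a1, its usual partner, averaged 4.98 ± 1.15 FPKM in stem cells, 2.32 ± 0.30 in the papilla, 0.62 in the sheath and 0.67 in interfollicular dermis; papilla against stem cells was -0.84 (adjusted p = 0.0601). The Col8a2 to Col8a1 ratio, a pair chosen after its values were seen, was 3.96 to 8.87 in stem cells and 0.408 to 1.11 in the papilla. In the sheath it was 0.802 to 4.17, overlapping stem cells, and in interfollicular dermis 0.120 to 0.411. Col8a2, Col11a1 and Col12a1 were called lower in the papilla than in stem cells under all 22 alternatives. Over these settings the adjusted p-value reached at most 0.00821 for Col8a2, 0.0188 for Col11a1 and 0.0105 for Col12a1. The settings include the fit without stem cell replicates 1 and 2, which held 974 and 586 FPKM of 6 immune markers where replicate 4 held 38.9.

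The levels of 7 dermal sheath or smooth muscle markers moved with these 3 chains: their sum was 1590 to 1820 FPKM in stem cells and 76.8 to 203 in the papilla, and 6 of the 7, Acta2 among them, were lower in the papilla, beside 6.38% of entries. Their part in the result was not tested. Of 4 cartilage markers 2 were tested: Acan was lower in the papilla than in stem cells, beside 6.38% of entries, and Sox9 did not pass. Matn1 was at 0 in all stem cell and papilla libraries and Hapln1 did not exceed 0.668 FPKM in them.

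Beaded filament chains, the type VI collagens that surround cells in the dermis, were tested for 5 of 6 members. All 5 were higher in the papilla than in the sheath (16.4% of entries were) and than in interfollicular dermis (13.7% of entries). In stem cells 4 of the 5 were higher than in the sheath (19.6% of entries were) and than in interfollicular dermis (17.9% of entries). Col6a5 did not pass in these comparisons (sheath minus stem cells -0.28, adjusted p = 0.55, and stem cells minus interfollicular dermis 0.45, adjusted p = 0.337). Col6a1 was at 288, 268 and 487 FPKM in stem cells, 249.1, 181 and 235 in the papilla, 17.5, 18.4 and 13.4 in the sheath and 5.10, 11.9 and 19.1 in interfollicular dermis. Col6a2 was at 292, 274 and 490, 269, 176 and 260, 16.0, 16.7 and 15.8, and 5.72, 11.8 and 20.6 FPKM. Col6a3, the long alpha 3 chain of the heterotrimer, was at 196, 163 and 332, 115, 108 and 160, 28.1, 10.99 and 5.85, and 6.63, 9.07 and 19.5 FPKM. For all 3 genes every stem cell library was above every papilla library, and none passed (Col6a1 -0.61, adjusted p = 0.334; Col6a2 -0.55, adjusted p = 0.368; Col6a3 -0.80, adjusted p = 0.328). Stem cells were higher than interfollicular dermis by 4.85 for Col6a1 (adjusted p = 1.63e-06), 4.79 for Col6a2 (adjusted p = 1.56e-06) and 4.24 for Col6a3 (adjusted p = 3.72e-05).

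The minor type VI chains Col6a5 and Col6a6, which can take the place of the alpha 3 chain, were the 2 chains higher in the papilla. Col6a6 was at 1.86, 4.17 and 5.80 FPKM in stem cells, 11.2, 9.73 and 8.97 in the papilla, 0.843, 0.147 and 0.585 in the sheath and 0.0270, 0.113 and 0.216 in interfollicular dermis. Col6a5 was at 1.65, 0.672 and 0.416 in stem cells and 3.501, 2.86 and 3.84 in the papilla. No papilla library overlapped a stem cell library for either. Differences were 1.23 ± 0.33 for Col6a6 (adjusted p = 0.0347) and 1.25 ± 0.35 for Col6a5 (adjusted p = 0.0437); these held under 11 of 22 and 6 of 21 alternatives, and leaving out any 1 stem cell or papilla library ended the Col6a5 call (adjusted p up to 0.141). The Col6a6 call ended without stem cell replicate 1 (adjusted p = 0.147) or 2 (0.0788) and without papilla replicate 1 (0.0947) or 2 (0.0689). The genes of Col6a6, Col6a5 and Col6a4 lie in a row on chromosome 9, with gaps of 27.8 and 27.9 kb, and Col6a4 reached at most 0.226 FPKM.

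**Figure D5:**
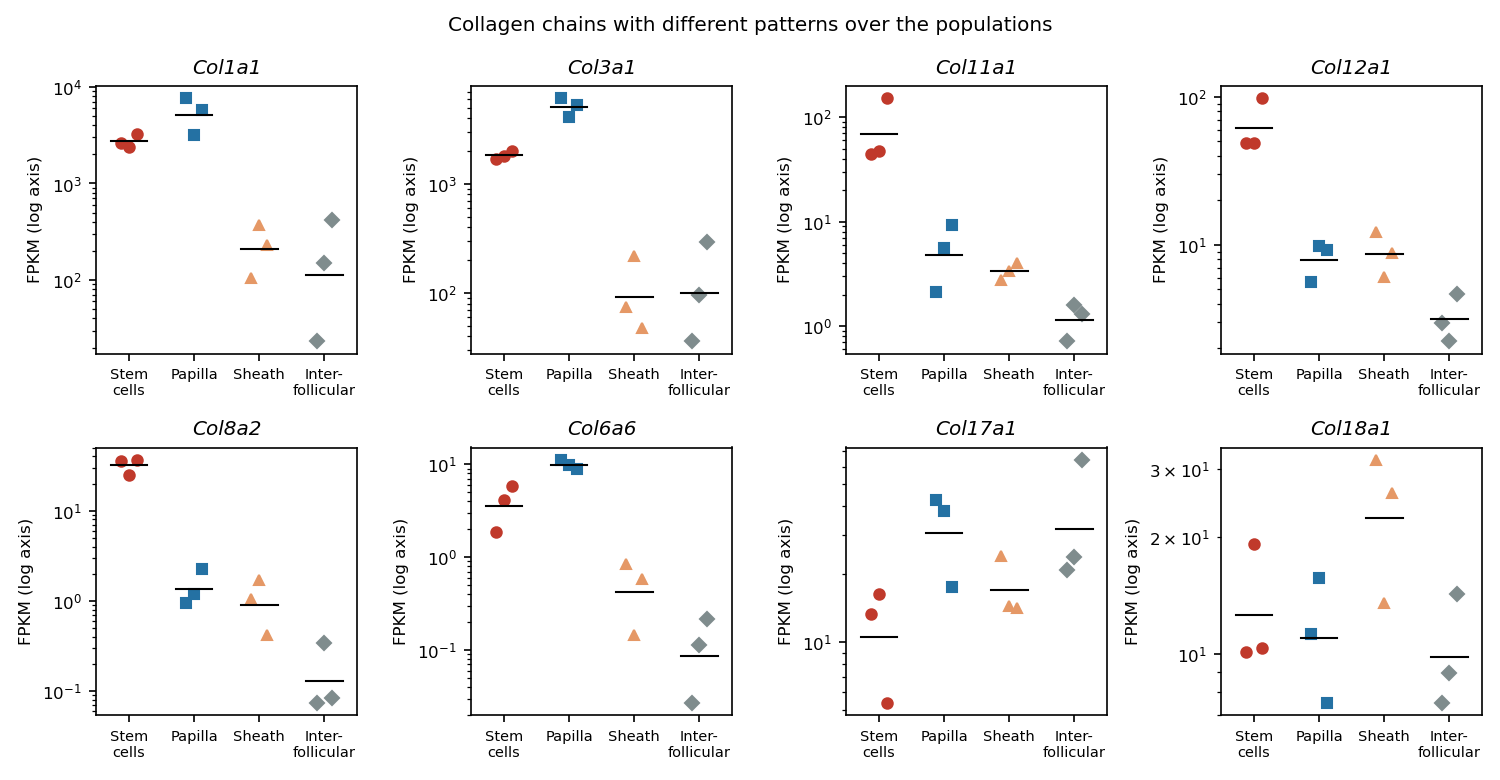
FPKM of Col1a1, Col3a1, Col11a1, Col12a1, Col8a2, Col6a6, Col17a1 and Col18a1 in each library by population, on log axes; points are libraries and the black line is the geometric mean of 3. Col8a2, Col11a1 and Col12a1 stand above all other populations in stem cells, Col6a6 is highest in the papilla, and all 4 populations overlap for Col18a1.

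Of the 4 transmembrane chains, 2 were tested. Col17a1, a hemidesmosome component of basal keratinocytes that anchors the epidermis, was at 13.3, 16.4 and 5.40 FPKM in stem cells, 42.5, 38.1 and 17.5 in the papilla, 24, 14.5 and 14.2 in the sheath and 21.0, 23.98 and 64.4 in interfollicular dermis. In all 3 interfollicular libraries it ranked 4th among the 44 chains, behind Col1a1, Col1a2 and Col3a1. Stem cells were lower than interfollicular dermis by -1.50 (adjusted p = 0.0271), a call that ended without stem cell replicate 4 (adjusted p = 0.11), without interfollicular replicate 6 (adjusted p = 0.107) and without the filter on low values (adjusted p = 0.0706). With the replicate block the difference was -0.64 and the call ended too (adjusted p = 0.0576). Papilla against stem cells was 1.43 (adjusted p = 0.0845, and 0.00416 with the replicate block). The sum of 12 keratinocyte markers was 3410, 3490 and 1220 FPKM in papilla replicates 1, 2 and 4, so that replicate 4 was lowest for both the markers and Col17a1, and 712 to 1360 in stem cells; their part in the Col17a1 level was not tested. Col23a1, the other tested transmembrane chain, was at 5.43, 17.4 and 50.5 FPKM in the papilla and 5.38, 4.80 and 10.98 in stem cells. It was higher in the papilla than in the sheath by 2.71 (adjusted p = 0.00226), and the papilla libraries spread over a wide range. Col26a1, the 1 tested chain outside these classes, averaged 1.74 ± 1.10 FPKM (SD, n = 3) in the papilla and passed only against the sheath, where it averaged 0.294 FPKM (1.01, adjusted p = 0.0328). That call held under 10 of 15 alternatives and ended without sheath replicate 1 (adjusted p = 0.0562), 4 (0.0817) or 5 (0.0732), with quantile normalization (0.102) and without the filter (0.0527).

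The 15 untested chains reached 1 FPKM in at most 2 libraries each. Col2a1, Col11a2, Col24a1, Col9a1, Col9a2, Col9a3, Col19a1, Col22a1, Col10a1, Col6a4, Col13a1, Col25a1 and Col28a1 join Col4a3 and Col4a4 here. Their highest values were 3.22 FPKM for Col13a1, a transmembrane chain, 3.07 for Col9a1 and 2.59 for Col9a3, all in papilla libraries, and the cartilage chain Col2a1 did not exceed 0.136 FPKM. Col10a1, a chain of hypertrophic cartilage, reached 0.787 FPKM in stem cells and 0.0532 in the papilla. Without the filter on low values Col4a3 and Col4a4 passed as higher in the papilla than in stem cells and Col10a1 as lower; at such low values this is given only as the result of that setting.

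The enzymes and chaperones that make collagen were described alongside. Of 32 processing genes found, 29 were tested, and in stem cells against interfollicular dermis 24 were higher and 0 lower, with a median log2 difference of 2.27, beside 17.9% higher and 19.7% lower among all tested entries. In papilla against interfollicular dermis 26 were higher and 1, Adamts3, was lower, beside 13.7% and 28.6% of entries. In sheath against stem cells 21 were lower and 0 higher, beside 19.6% and 24.3% of entries. In papilla against sheath 23 were higher and 0 lower, beside 16.4% and 33.4%. In papilla against stem cells only Pcolce2 and Loxl3 of these genes passed, both higher in the papilla (2.31% of entries were), and the median was 0.05. In sheath against interfollicular dermis 0 passed, beside 2.26% of entries. Serpinh1, the collagen chaperone HSP47, was at 387, 375 and 433 FPKM in stem cells, 401, 281 and 369 in the papilla, 70.9, 77.0 and 122 in the sheath and 34.3, 53.7 and 64.9 in interfollicular dermis. Its level in stem cells and papilla overlapped, and in both it exceeded every library of the other 2 populations. Pcolce2, which helps cleave procollagen, was at 12.7, 15.0 and 11.4 FPKM in stem cells and 75.4, 40.4 and 56.0 in the papilla, 2.02 higher (adjusted p = 0.011).

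Receptors and fibril partners showed further differences between papilla and stem cells. Of 9 collagen receptors tested, Itga11, Itgb1 and Cspg4 were lower in the papilla and 0 were higher, beside 6.38% and 2.31% of entries, with a median of -0.35 where that of all entries was -0.25. Itga11, the integrin subunit that binds fibrillar collagen, was at 54.1, 37.4 and 47.1 FPKM in stem cells and 4.25, 2.60 and 2.21 in the papilla, a difference of -3.57 ± 0.29 (log2, SE; adjusted p = 4.57e-05). Its stem cell and papilla libraries did not overlap. Of 9 fibril-bound partners tested, Fn1 was higher in the papilla (1.15, adjusted p = 0.0193) and Bgn lower (-1.99, adjusted p = 0.00277), 1 of 9 in each direction beside the same 2.31% and 6.38%, with a median of 0.34. Biglycan, the product of Bgn, is a small proteoglycan on collagen fibrils, and it stood at 2058, 1448 and 2683 FPKM in stem cells and 613, 350 and 588 in the papilla. In stem cells against interfollicular dermis all 9 partners were higher, beside 17.9% of entries, and in papilla against interfollicular dermis 8 were higher, beside 13.7%. Of the 9 receptors, 6 were higher and 1 lower in stem cells than in interfollicular dermis, beside 17.9% and 19.7% of entries. For papilla against interfollicular dermis 5 were higher and 1 lower, beside 13.7% and 28.6%. The 1 lower in both comparisons was the discoidin receptor Ddr1, an epithelial collagen receptor.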

How the data were processed

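RNA-seq libraries of 4 sorted populations, 3 each, were analysed from 1 table of FPKM values deposited by the authors, with 24692 entries; no library totals in reads were used here, so depth per library is unknown. Per the submitters' processing notes the tools were TopHat2 2.0.13, SAMtools and Cufflinks 2.2.1 with build mm10; their settings and annotation are not given in the sources used here.

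Groups were taken from the sample labels. An entry was kept if 3 or more libraries reached 1 FPKM (12774 entries), and log2(FPKM + 1) was modelled by limma 3.58.1 (R 4.3.3) with 4 population means, an empirical Bayes trend (residual df 8, prior df 4.61) and two-sided tests, adjusted by Benjamini-Hochberg over all entries of a contrast. The scripts were tested on simulated data. Pairing was checked by correlating deviations from population means: stem cell and papilla libraries of the same number gave 0.306, 0.241 and 0.389, so these numbers were taken as pairs; other population pairs ran from -0.272 to 0.294.

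Every chain is accounted for. Values per library are given for 15 chains listed by name and for up to 4 called chains per direction and contrast with the largest differences among those averaging at least 5 FPKM; other chains and listed genes given per library were chosen after their values were seen. The members and gene lists were chosen with earlier results of these data known. Alternatives varied the pseudocount, filter, scaling, pairing and libraries. Start sequences and positions are from RefSeq GRCm38.p6, checked against GENCODE vM21 exons with Python 3.11.15.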

Additional observations from a re-analysis of the deposited data

How the results depend on the processing

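Of 92 calls of a single chain in a contrast, 74 held under every alternative in which the chain was tested, 18 were lost under at least 1 and 0 reversed, over 21 alternatives (22 for papilla against stem cells). The count for papilla against stem cells was 3 with a pseudocount of 0.1. Leaving out 1 library gave 3 to 8, the 3 without stem cell replicate 1 or 2. The cause was not tested. A fit without both of these replicates, chosen after seeing the data, left 1 stem cell library, so its count is not given. The count for sheath against interfollicular dermis was 2 with the replicate block (Col4a1 and Col18a1), and 0 to 2 without 1 library: 1 without sheath replicate 4 and 2 without interfollicular replicate 6. The block was fitted on all 4 populations, although only stem cell and papilla numbers were taken as pairs. Sheath and interfollicular dermis share only replicate number 1, whose deviations correlated at -0.272. Other ranges without 1 library were 20 to 22 for sheath against stem cells, 17 to 22 for papilla against sheath, 20 to 21 for stem cells and 18 to 23 for papilla against interfollicular dermis, and 22 to 25 for the F test. The replicate block raised the papilla against stem cells count from 6 to 9. Sheath replicate 5 and interfollicular replicate 6 have numbers of their own and add nothing to that fit. The share of all entries called was not taken under any alternative, so a change in these counts may not be particular to the chains. With the columns rescaled by median of ratios, the all-entry median went from -0.25 to -0.07 for papilla minus stem cells, from -0.36 to 0.00 for papilla minus sheath and from -0.32 to -0.02 for papilla minus interfollicular dermis. Read depth is unknown, so the error of low FPKM values could not be set against it.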
